A study of Mus musculus with 11 samples.

Results

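The Zfp genes are the mouse genes whose symbols consist of Zfp and a number, short for zinc finger protein. Zfp36, which binds RNA through another kind of finger, was left out. The deposited table held 234 of these genes among 14351 genes with a name, and 124 of the 234 were bright enough to test. Lungs of Balb/c mice were profiled on 11 Affymetrix arrays of a single colour. The animals lacked both Eif4ebp1 and Eif4ebp2 (4ebp1-/-/4ebp2-/-, called KO) or were wild type (WT). Polysomal RNA was measured on 3 KO and 2 WT arrays, and total RNA on 3 KO and 3 WT arrays. All mice were placed on AIN-93M purified diet at 5 weeks of age and kept on it to the end. Polysomal RNA was pooled from gradient fractions 7 to 10 of 10, which carried at least 3 ribosomes per transcript. The KO mice were a gift from another laboratory and the WT mice were bought, so nothing makes them littermates. The sources used here give neither age at collection nor sex. They also do not tell whether each array had its own mouse, so p-values reflect differences among arrays that may be technical in part.

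Most proteins of this family bind DNA through a row of C2H2 fingers, small loops that each hold a zinc ion. Many also carry a KRAB box, which recruits the corepressor Trim28 and through it the histone methyltransferase Setdb1, and so silences retroviruses and mobile elements. These genes often lie side by side in clusters that grew by duplication. 4E-BP1 and 4E-BP2, the products of the deleted genes, occupy eIF4E, the protein that recognises the cap of a message, and so restrain initiation. Total RNA gives the amount of a message, and polysomal RNA how much of it sits on several ribosomes.

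The message start is shown for 5 Zfp genes on which the results turn, because messages that begin with a C and a run of pyrimidines are known to be sensitive to 4E-BPs. Each sequence holds 60 bases before and 20 bases from the annotated start of the gene, at the 5′ end of its first exon, from the RefSeq promoter table of GRCm38.p6. Capitals mark the first 5 bases of the message. Zfp946 (chr17:22424142-22424221, plus strand), Zfp948 (chr17:21566918-21566997, plus strand) and Zfp959 (chr17:55892033-55892112, plus strand) lie on chromosome 17. Zfp120 (chr2:150136659-150136738, minus strand) lies on chromosome 2, and Zfp871 (chr17:32788268-32788347, minus strand) on chromosome 17.
Zfp946: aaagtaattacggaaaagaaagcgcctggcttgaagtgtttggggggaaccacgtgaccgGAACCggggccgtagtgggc
Zfp948: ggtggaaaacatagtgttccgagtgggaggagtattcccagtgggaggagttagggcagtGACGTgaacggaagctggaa
Zfp959: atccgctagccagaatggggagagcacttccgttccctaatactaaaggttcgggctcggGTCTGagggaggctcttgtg
Zfp120: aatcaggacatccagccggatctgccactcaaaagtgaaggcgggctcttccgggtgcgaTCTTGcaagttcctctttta
Zfp871: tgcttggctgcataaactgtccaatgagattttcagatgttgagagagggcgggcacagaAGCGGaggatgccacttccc
The search was for a C followed by 4 bases that are each C or T, on the message strand, beginning within 5 bases of the annotated start. None of the 5 genes had such a start. A promoter entry was found for 106 of the 124 tested Zfp genes, and 19 of these (17.9%) had one, against 1293 of 6478 tested genes with an entry. Among cytosolic ribosomal protein genes, the textbook example of such messages, 9 of 18 had one (50.0%). The box CCAAT, read on both strands of the 300 bases around the start, was present in 51.9% of the Zfp genes and in 38.6% of all tested genes.

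As a check of the genotype, Eif4ebp2 stood at 3.90, 3.92 and 3.75 log2 on the KO polysomal arrays, against 5.76 and 6.09 on the WT polysomal arrays. On total RNA arrays it stood at 2.61, 3.10 and 3.26 in KO, against 4.50, 5.49 and 4.67 in WT. It was lower on every KO array of either RNA kind. Eif4ebp1 read 7.36, 7.05 and 7.15 in KO polysomal RNA, against 7.78 and 7.93 in WT polysomal RNA, and 7.94, 7.92 and 7.93 in KO total RNA, against 8.25, 8.54 and 8.20 in WT total RNA. Where its probes lie relative to the deletion is not known here, so it does not check the labels. The lung was recognisable from its markers. The summed signal of 7 tested alveolar type 2 markers was 17.93 to 17.97 log2 on KO polysomal arrays and 17.98 and 18.04 on WT polysomal arrays, and 17.48 to 17.52 on KO total arrays, against 16.63 to 17.26 on WT total arrays.

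The 124 tested Zfp genes had mean levels from 4.46 to 12.70 log2, with a median of 7.43. A probe set was tested where its value was at least 5 log2 on at least 2 arrays. This left out 110 Zfp genes with means from 1.32 to 4.79 log2, among them Zfp57, Zfp568, Zfp708, Zfp369 and Zfp318. Zfp57 guards DNA methylation at imprinted genes. The share tested, 53.0%, was close to the 56.4% of other genes. Of the tested Zfp genes, 112 reached 5 log2 on 2 arrays of each RNA kind and 12 did so in total RNA alone. Passing in total RNA alone favours a lower polysomal reading. The polysomal arrays that reached 5 log2 could all be KO, as for Zfp946, Zfp948 and Zfp120, which favours a higher KO polysomal reading. The brightest was Zfp706, a short protein with a single zinc finger, at 11.82, 11.74 and 12.01 log2 on KO polysomal arrays and 11.96 and 11.87 on WT polysomal arrays. On total arrays it read 13.42, 13.44 and 13.41 in KO and 13.48, 13.46 and 13.10 in WT. It was lower in polysomal RNA in both genotypes and did not pass between genotypes (polysomal -0.06, SE 0.13, and total 0.07, SE 0.12). All levels are on the array's log2 scale, and levels of different genes are not comparable as amounts of RNA.

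Relative to the other messages of each pool, Zfp messages were more often lower than higher on polysomes. Of the 112 Zfp genes that reached the minimum in both RNA kinds, 63 were lower in polysomal than in total RNA in KO lung and 11 were higher, at a limma adjusted p under 0.05. Among the 7556 genes of any name that did so, 25.2% were lower and 39.1% higher in KO. In WT lung 69 of the 112 were lower and 11 higher, against 27.4% lower and 44.3% higher of those 7556. The median difference of the 112 was -0.51 log2 in KO and -0.72 in WT, while that of the 7556 was 0.13 in KO and 0.22 in WT. In both genotypes 59 of the 112 were lower, which is 93.7% of those lower in KO and 85.5% of those lower in WT. The same overlap over the 7556 genes was 80.5% and 74.2%, and the 2 comparisons share no arrays. Leaving out each array in turn, 52 of the 63 KO calls and 60 of the 69 WT calls held every time. The 12 Zfp genes that reached the minimum in total RNA alone were all lower in both genotypes, the direction that the filter favours. Of all 239 genes that did so, 72.4% were lower in KO and 78.7% in WT. With them the counts were 75 lower and 11 higher of 124 in KO, against 25.7% and 39.5% of all 8085 tested genes, and 81 lower and 11 higher in WT, against 27.9% and 44.5%.

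The array medians of the Zfp genes show the same order of polysomal and total RNA. Over the 112 genes they were 7.25, 7.24 and 7.23 log2 on KO polysomal arrays and 6.83 and 6.88 on WT polysomal arrays. On total arrays they were 8.10, 8.06 and 8.13 in KO and 8.33, 8.32 and 8.18 in WT. The groups did not overlap: KO lay above WT in polysomal RNA and below it in total RNA. The medians of all tested genes were 8.77 to 8.78 on KO polysomal arrays and 8.74 to 8.78 on WT polysomal arrays, and 8.58 to 8.60 on KO total arrays and 8.38 to 8.49 on WT total arrays.

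The messages furthest below their total level in WT polysomal RNA were Zfp677, Zfp946, Zfp948, Zfp68, Zfp943 and Zfp810. Zfp677 read 6.86, 7.65 and 6.83 log2 in KO polysomal RNA and 6.83 and 5.10 in WT polysomal RNA. Its total RNA level was 9.80, 9.63 and 10.23 in KO and 10.83, 10.70 and 10.58 in WT. The polysomal deficit of Zfp677 was thus -2.77 log2 in KO (SE 0.39) and -4.74 in WT (SE 0.43), and its lowest KO polysomal array stood level with the higher WT one. Zfp68 read 6.13, 6.70 and 6.73 in KO polysomal RNA, 5.19 and 5.65 in WT polysomal RNA, 8.64, 8.34 and 9.14 in KO total RNA, and 9.67, 9.63 and 8.65 in WT total RNA. Its polysomal minus total difference was -2.19 in KO and -3.90 in WT. In KO the next lowest after Zfp677 were Zfp11 (-2.50), Zfp975 (-2.49), Zfp386 (-2.41) and Zfp30 (-2.27), of which Zfp975 and Zfp386 reached the minimum in total RNA alone.

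A minority ran the other way. Zfp871 read 9.81, 9.85 and 9.77 log2 in KO polysomal RNA and 9.53 and 8.69 in WT polysomal RNA, and only 5.04, 6.49 and 5.41 in KO total RNA and 4.74, 4.26 and 4.29 in WT total RNA. On that relative scale, the polysomal level of Zfp871 exceeded its total level by 4.16 log2 in KO (SE 0.34) and 4.68 in WT (SE 0.38), with no overlap. Its WT total values lie under the testing minimum of 5, so the size of that difference is poorly measured. Zfp687 read 6.41, 6.58 and 6.12 in KO polysomal and 6.57 and 6.07 in WT polysomal RNA, against 4.82, 5.43 and 5.25 in KO total and 4.42, 4.13 and 5.38 in WT total RNA. It was higher in polysomal RNA by 1.20 in KO and 1.68 in WT. KO total array 1 and WT total arrays 1 and 2 lie under 5, so these sizes are poorly measured. Zfp771 was higher by 0.64 in KO and 1.13 in WT, with 8.93, 8.97 and 8.70 in KO polysomal, 9.14 and 8.93 in WT polysomal, 8.41, 8.11 and 8.17 in KO total and 7.46, 7.94 and 8.31 in WT total RNA. Its KO call was lost without KO polysomal array 2 (adjusted p = 0.053) or KO total array 2 (adjusted p = 0.053). Zfp512 was higher by 0.67 in KO and 0.95 in WT, with 9.72, 9.45 and 9.56 in KO polysomal, 9.66 and 9.38 in WT polysomal, 8.72, 9.15 and 8.84 in KO total and 8.65, 8.29 and 8.76 in WT total RNA. For Zfp687, Zfp771 and Zfp512 every polysomal array lay above every total array. Zfp1 was higher in WT (1.45, SE 0.29) and did not pass in KO (0.30). Zfp330 was higher by 0.64 in KO and 0.63 in WT, and Zfp956 was higher in KO by 0.58. The KO call of Zfp330 was lost without KO total array 1 (adjusted p = 0.062) or array 2 (adjusted p = 0.052).

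**Figure D1:**
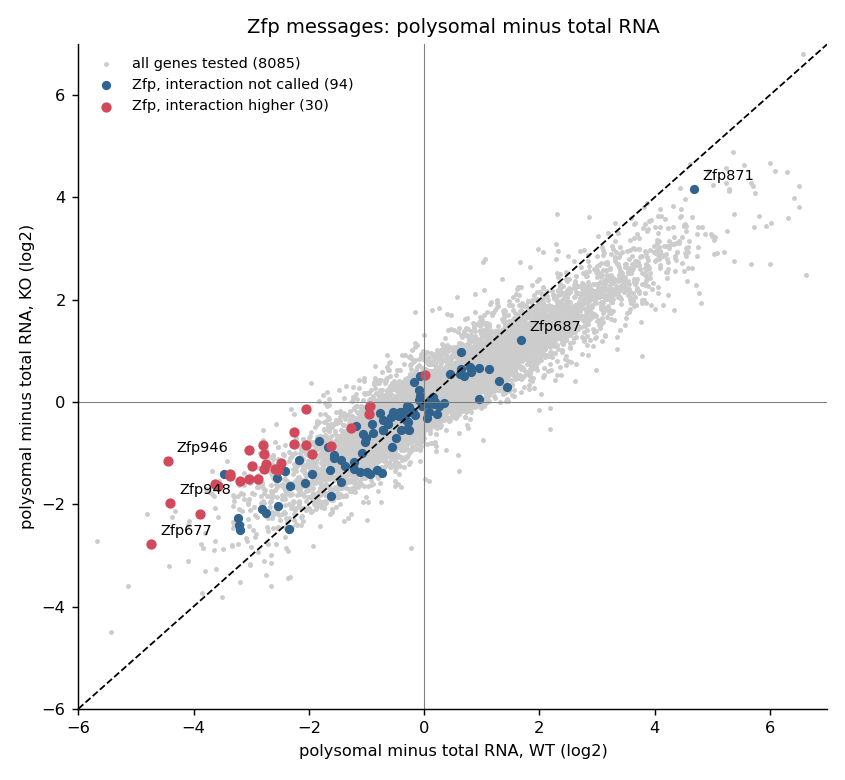
Polysomal minus total RNA (log2) of each tested Zfp gene in KO (vertical axis) against WT (horizontal axis), over all tested genes in grey. Most Zfp genes lie below 0 on both axes, and Zfp871 stands apart at 4.16 in KO and 4.68 in WT. The dashed line marks equal values, and the grey cloud of all genes is flatter than that line.

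In polysomal RNA, Zfp messages that differed by genotype were higher in KO. At a limma adjusted p under 0.05, 22 of 124 were higher in KO and 0 were lower, against 8.36% higher and 6.77% lower of all tested genes. At an unadjusted p under 0.05, limma counted 5 Zfp genes lower in KO polysomal RNA. The median Zfp difference was 0.14 log2, and -0.01 over all genes. The 22 calls came down to 13 without KO polysomal array 2, where 5.17% of all tested genes were higher. Calls were also lost without either WT polysomal array, which leaves a single one in that group. In all, 9 calls held without any single array: Zfp120, Zfp160, Zfp367, Zfp606, Zfp758, Zfp760, Zfp810, Zfp943 and Zfp946. The labels give each array a set letter. Within letters B and C, each with 1 KO and 1 WT polysomal array, the Zfp median difference was 0.12 and 0.16.

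Zfp946 read 6.02, 6.40 and 6.51 log2 in KO polysomal RNA, against 4.54 and 3.61 in WT polysomal RNA. It was 4.71-fold higher in KO (2.24 log2, SE 0.33, limma adjusted p = 0.0032). Both WT values lie under 5 log2, and the median of the untested probe sets was 2.33 and 2.35 on these arrays. Zfp120 read 6.74, 6.80 and 6.28 in KO polysomal RNA, against 4.87 and 4.92 in WT polysomal RNA, a difference of 1.71 (SE 0.15, limma adjusted p = 0.00048). Both of its WT polysomal values also lie under 5 log2. Its total RNA level, 8.07, 7.87 and 8.10 in KO against 8.23, 8.27 and 8.31 in WT, did not pass the test. For both genes the KO polysomal arrays all lay above the WT ones.

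Zfp760 (1.43, SE 0.17, adjusted p = 0.0015), Zfp810, Zfp948 and Zfp160 followed at nearly the same size. Zfp160 read 7.80, 8.03 and 7.61 log2 in KO polysomal RNA, against 6.37 and 6.49 in WT polysomal RNA (1.38, SE 0.22). Zfp810 read 6.89, 6.89 and 6.92 in KO polysomal RNA, against 5.42 and 5.56 in WT polysomal RNA (1.41, SE 0.18). Their groups did not overlap. In total RNA Zfp160 read 8.56, 8.31 and 9.09 in KO against 9.38, 9.32 and 8.96 in WT, which overlap, and Zfp810 8.34, 8.50 and 8.79 in KO against 9.42, 8.86 and 8.90 in WT, which do not (-0.52, a call lost without any of 8 arrays, with an adjusted p up to 0.14). Zfp329 was higher by 1.25 (SE 0.25). Zfp101 read 6.39, 6.85 and 6.79 in KO polysomal RNA, against 5.72 and 5.04 in WT polysomal RNA (1.30, SE 0.29), and 6.86, 6.27 and 7.30 in KO total RNA, against 7.52, 7.42 and 7.36 in WT total RNA. The Zfp101 call in polysomal RNA was lost without WT polysomal array 2 (0.96, adjusted p = 0.13) or KO polysomal array 2 (adjusted p = 0.053), and that of Zfp329 without either WT polysomal array (adjusted p = 0.054 and 0.055).

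**Figure D2:**
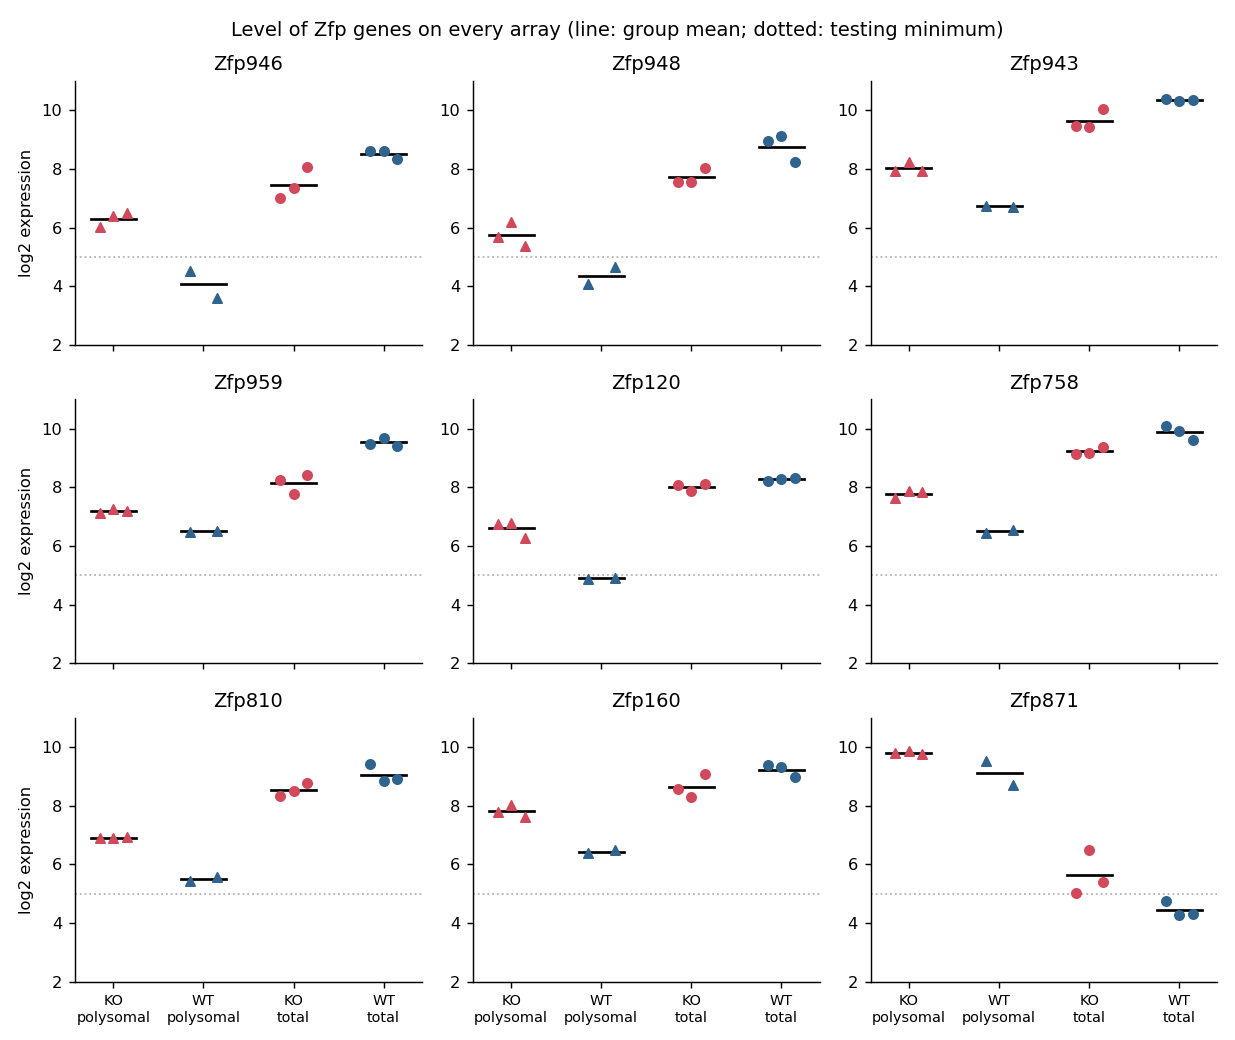
Level (log2 signal) of 9 Zfp genes on each array, in KO and WT polysomal RNA (triangles) and KO and WT total RNA (circles). The lines are group means and the dotted line is the testing minimum of 5. In all 9 genes shown the KO polysomal arrays lie above the WT ones, and of these Zfp871 alone is higher in polysomal than in total RNA. The 9 are a selection of the named genes. Zfp445, Zfp687, Zfp771 and Zfp512 are not shown. Their polysomal arrays overlapped between genotypes, and they were higher in polysomal than in total RNA in WT.

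In total RNA the direction was the opposite. Of the 124 Zfp genes, 22 were lower in KO and 3 were higher, against 5.97% lower and 17.2% higher of all tested genes. The Zfp median difference was -0.14 log2 and that of all genes 0.09. The count of lower genes was 14 without KO total array 1, and 8 without KO total array 2 or without WT total array 1. In these fits, in that order, 3.35%, 2.24% and 2.62% of all tested genes were lower. The count of higher genes was 5 without WT total array 3, against 18.1% of all tested genes. Only Zfp69, Zfp758, Zfp943, Zfp944, Zfp959 and Zfp974 were lower whichever array was left out. A fit with the set letter as a block gave 13 lower genes and 5 higher, against 4.63% lower and 15.3% higher of all tested genes. Within letter A the Zfp median difference was -0.13, and within letter B -0.15. In bulk tissue, fewer cells that hold a message and less of it per cell cannot be told apart.

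**Figure D3:**
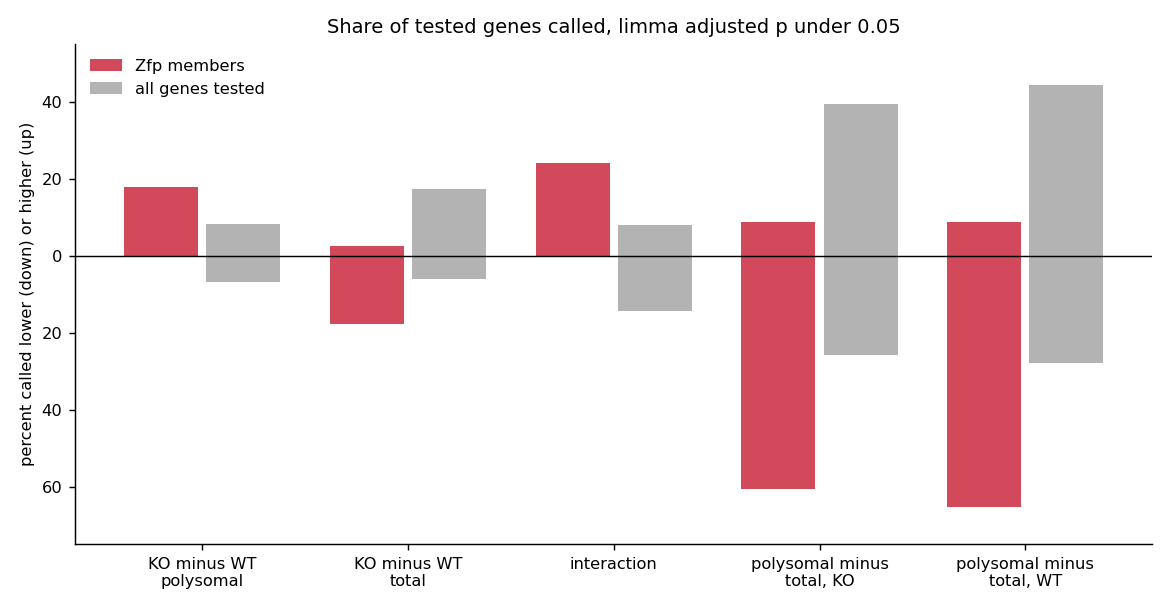
Share (%) of genes higher and lower at a limma adjusted p under 0.05 in each comparison, for the 124 tested Zfp genes and for all 8085 tested genes. The Zfp genes reach 17.7% lower in total RNA, 17.7% higher in polysomal RNA and 24.2% higher in the interaction, against 5.97%, 8.36% and 8.06% of all genes.

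Zfp959 had the largest difference of the Zfp genes in total RNA. It read 8.25, 7.76 and 8.42 log2 in KO total RNA, against 9.49, 9.69 and 9.41 in WT total RNA, a difference of -1.39 (SE 0.16, limma adjusted p = 0.00076) with no overlap. In polysomal RNA it was higher in KO, with 7.13, 7.26 and 7.20 in KO against 6.47 and 6.53 in WT. That polysomal call was lost without any of the 5 polysomal arrays, with an adjusted p of 0.11 without WT polysomal array 1. Zfp974 fell by 1.07 in total RNA (SE 0.21, adjusted p = 0.0070), Zfp944 by 0.80 and Zfp69 by 0.79.

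Zfp946 read 7.00, 7.37 and 8.05 log2 in KO total RNA, against 8.61, 8.62 and 8.33 in WT total RNA, and Zfp948 7.55, 7.57 and 8.04 in KO total RNA, against 8.94, 9.11 and 8.25 in WT total RNA. Both differed by -1.05 (SE 0.29 and 0.28), with no overlap between genotypes. Each of these 2 calls was lost without KO total array 1 or 2 or WT total array 1 or 2, with adjusted p-values up to 0.10 and 0.092. Zfp54 (-0.97), Zfp945 (-0.94), Zfp825 (-0.92) and Zfp51 (-0.82) were also lower. Their calls were lost without 1, 2, 4 and 4 of the total arrays in turn, among them KO total array 2 in each case (adjusted p = 0.052, 0.064, 0.12 and 0.11).

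The 3 Zfp genes higher in KO total RNA were Zfp871, Zfp445 and Zfp324. Zfp445, which with Zfp57 maintains imprints, read 8.17, 8.21 and 8.15 log2 in KO total RNA, against 7.12, 6.67 and 7.14 in WT total RNA (1.20, SE 0.25, limma adjusted p = 0.0089). The groups did not overlap, and the call held without any single array. In polysomal RNA Zfp445 read 8.65, 7.99 and 9.09 in KO and 8.09 and 8.46 in WT, which overlap. Zfp871 differed by 1.22 (SE 0.34) in total RNA, a call lost without KO total array 2 (0.79, adjusted p = 0.072), KO total array 3 (adjusted p = 0.051), WT total array 2 (adjusted p = 0.079) or WT total array 3 (adjusted p = 0.065). Zfp324 differed by 0.65, and its call was lost without KO total array 1 (adjusted p = 0.052) or WT total array 1 (adjusted p = 0.059).

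Of the Zfp genes, 8 were both lower in KO total RNA and higher in KO polysomal RNA, which is 36.4% of each list of 22. Over all 8085 tested genes 85 were so, which is 17.6% of the 483 lower in total RNA and 12.6% of the 676 higher in polysomal RNA. The 8 were Zfp367, Zfp62, Zfp758, Zfp810, Zfp943, Zfp946, Zfp948 and Zfp959. Of these, only Zfp758 and Zfp943 kept both calls whichever array was left out. The other 14 on each list passed in 1 RNA kind alone. Zfp943 read 7.95, 8.23 and 7.95 log2 in KO polysomal RNA, against 6.75 and 6.71 in WT polysomal RNA, and 9.47, 9.44 and 10.04 in KO total RNA, against 10.38, 10.33 and 10.35 in WT total RNA. Zfp758 read 7.64, 7.86 and 7.83 in KO polysomal RNA, against 6.45 and 6.56 in WT polysomal RNA, and 9.14, 9.17 and 9.37 in KO total RNA, against 10.08, 9.93 and 9.62 in WT total RNA. In both genes the genotypes separated in each RNA kind. Zfp948 read 5.68, 6.20 and 5.38 in KO polysomal RNA, against 4.07 and 4.66 in WT polysomal RNA (1.39, SE 0.32). Both of these WT values lie under the testing minimum. The polysomal call for Zfp948 was lost without KO polysomal array 2 (adjusted p = 0.053) or WT polysomal array 1 (1.10, adjusted p = 0.12).

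**Figure D4:**
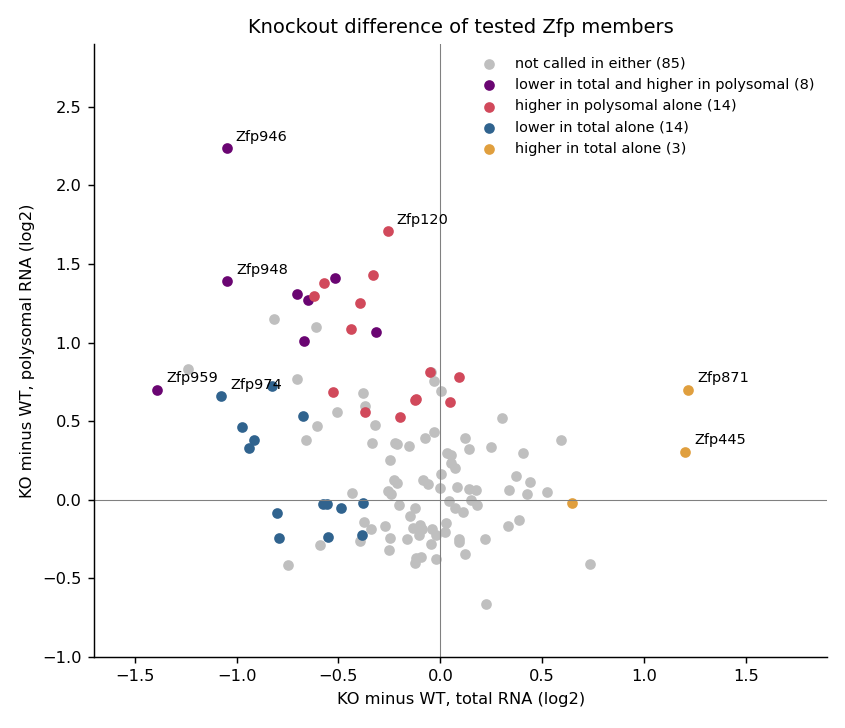
KO minus WT difference (log2) of each tested Zfp gene in polysomal RNA (vertical axis) against total RNA (horizontal axis), with the genes named by what passed. The upper left holds the 8 genes lower in total and higher in polysomal RNA, with Zfp946 at 2.24 in polysomal and -1.05 in total RNA.

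The interaction, the KO minus WT difference in polysomal RNA less that in total RNA, tests whether the genotype difference is equal in both RNA kinds. It was above 0 for 30 of the 124 Zfp genes at a limma adjusted p under 0.05 and below 0 for 0, against 8.06% and 14.2% of all tested genes. Of the 30, Zfp974, Zfp54 and Zfp825 passed between genotypes in total RNA but not in polysomal RNA. Zfp120 and Zfp160 passed in polysomal RNA but not in total RNA. At an unadjusted p under 0.05, limma counted 5 Zfp genes below 0. The median over Zfp genes was 0.28 log2, and that over all genes -0.13. The calls of 20 of the 30 held without any single array. Zfp946 had the largest value, 3.28 (SE 0.44, limma adjusted p = 0.0031), followed by Zfp948 at 2.44, Zfp959 at 2.09, Zfp943 at 2.01 and Zfp120 at 1.97. For Zfp946, Zfp948 and Zfp120 the WT polysomal values lie under the testing minimum, so these sizes are poorly measured. Zfp160, Zfp810, Zfp758 and Zfp101 lay between 1.92 and 1.95. Zfp677 reached 1.96 (SE 0.58), a call lost without any of 9 arrays, and its value was 1.10 without WT polysomal array 2 (adjusted p = 0.10). The smallest of the 30 values was that of Zfp638, a large nuclear protein, at 0.50. The polysomal minus total differences were spread less widely in KO than in WT for Zfp genes and for genes at large. Their 10th and 90th percentiles over the 112 Zfp genes that reached the minimum in both RNA kinds were -1.54 and 0.51 log2 in KO, and -3.17 and 0.63 in WT. Over the 7556 genes that did so they were -0.98 and 1.60 in KO, and -1.26 and 2.22 in WT. The interaction and the polysomal minus total difference of each genotype rest on the same arrays.

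Zfp260, Zfp451 and Zfp281 have roles outside the silencing of mobile elements and passed between genotypes in polysomal RNA but not in total RNA. Zfp260, a factor of heart growth, was higher in KO polysomal RNA, with 7.38, 7.00 and 7.36 log2 in KO against 6.58 and 6.64 in WT (0.63, SE 0.12). Zfp451, a SUMO ligase, read 8.54, 8.75 and 8.67 in KO polysomal RNA, against 8.15 and 8.10 in WT polysomal RNA (0.53, SE 0.12). The KO arrays lay above the WT arrays in polysomal RNA for both. The Zfp260 call was lost without WT polysomal array 1 (adjusted p = 0.0503), and that of Zfp451 without KO polysomal array 2 (adjusted p = 0.059) or WT polysomal array 1 (adjusted p = 0.066) or 2 (adjusted p = 0.092). Zfp281, which binds GC-rich promoters, was higher by 0.62 in KO polysomal RNA, with 8.61, 9.03 and 8.99 in KO against 8.10 and 8.41 in WT, and this call was lost without any of 8 arrays (0.47 without WT polysomal array 1, adjusted p = 0.20).

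Zfp809, a KRAB protein that silences the provirus of murine leukaemia virus in stem cells, was among the genes lower in KO total RNA. It read 11.78, 11.41 and 11.61 log2 in KO total RNA, against 12.21, 12.33 and 11.90 in WT total RNA (-0.55, SE 0.14), a call lost without any of 4 total arrays (adjusted p up to 0.083, without KO total array 2). In polysomal RNA it read 10.44, 10.45 and 10.53 in KO against 10.55 and 10.87 in WT, a difference that did not pass. Zfp148, Zfp143, Zfp521 and Zfp423, the last of which commits cells to the fat lineage, were lower on polysomes than in total RNA in both genotypes and did not pass between genotypes. Their polysomal minus total differences ran from -0.62 (Zfp521) to -1.84 (Zfp423) in KO and from -0.89 (Zfp521) to -1.62 (Zfp423) in WT, and Zfp423 reached the minimum in total RNA alone. Zfp106, an RNA-binding protein, and Zfp384 were also lower on polysomes in both, Zfp106 by -0.43 in KO and -0.63 in WT and Zfp384 by -0.71 in KO and -0.48 in WT. Zfp91, a ubiquitin ligase, was higher on polysomes by 0.54 in KO and 0.46 in WT. The KO call of Zfp106 was lost without KO polysomal array 3 (adjusted p = 0.052), and the WT calls of Zfp384 and Zfp91 without WT polysomal array 1 (adjusted p = 0.076 and 0.069).

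Others passed in no comparison. They were Zfp622, which helps the large ribosomal subunit mature (KO minus WT -0.16 in polysomal RNA, SE 0.10), Zfp207, a kinetochore protein (-0.66, SE 0.47), Zfp410, an activator of Chd4 (-0.04, SE 0.15), Zfp110, a partner of the neurotrophin receptor p75NTR (-0.25, SE 0.11), and Zfp503, a corepressor (0.32, SE 0.14). Zfp644, a partner of the histone methyltransferase G9a, was outside the rule for named genes and was chosen after its values were seen. It read 7.17, 7.53 and 7.58 log2 in KO polysomal RNA, against 6.01 and 6.67 in WT polysomal RNA (1.09, SE 0.23). Its polysomal call was lost without WT polysomal array 1 (0.76, adjusted p = 0.097).

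Many of these genes are neighbours. With at most 2 other protein-coding genes allowed between successive Zfp genes in the RefSeq order of GRCm38.p6, 39 tested genes lay in runs of 4 or more, 29 in shorter runs and 56 alone. Of the 39, 34 reached the minimum in both RNA kinds, and 24 of these were lower in polysomal than total RNA in KO and 25 in WT, where their median was -1.53 log2. Of the 56 alone 51 did so, and 24 were lower in KO and 26 in WT, where the median was -0.42. The interaction was called higher in 14 of the 34 and in 7 of the 51. A gene could reach the polysomal minimum on KO arrays alone, which favours a higher interaction. Without that choice the interaction was called higher in 14 of the 39 and in 8 of the 56, against 8.06% of all tested genes. Of the 7556 genes of any name that reached the minimum in both RNA kinds, it was called higher in 8.18%. Of those 7556, 25.2% were lower on polysomes in KO and 27.4% in WT. The difference between the 2 kinds of position was not tested. Duplicated genes share sequence, and how probes were grouped is not stated in what was used here, so signals of close relatives may not be independent. None of the Zfp probe sets had the same values as a probe set of another named gene, but 8 shared all their values with a probe set that has no name here, among them those of Zfp948, Zfp706, Zfp423 and Zfp521.

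The longest run, on chromosome 17, held 18 Zfp genes, of which 10 were tested: Zfp51, Zfp53, Zfp54, Zfp677, Zfp758, Zfp760, Zfp943, Zfp944, Zfp946 and Zfp948. All 10 were lower in polysomal than in total RNA in both genotypes, with a median of -1.47 log2 in KO and -3.21 in WT. In total RNA 7 were lower in KO (median -0.81), in polysomal RNA 5 were higher (median 1.21), and the interaction was called in 9 (median 1.84). The shares of all tested genes were 5.97% lower in total RNA, 8.36% higher in polysomal RNA and 8.06% higher in the interaction. Zfp944, which reached the minimum in total RNA alone, was not called in the interaction. It was lower in KO total RNA and differed by -0.08 in polysomal RNA.

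**Figure D5:**
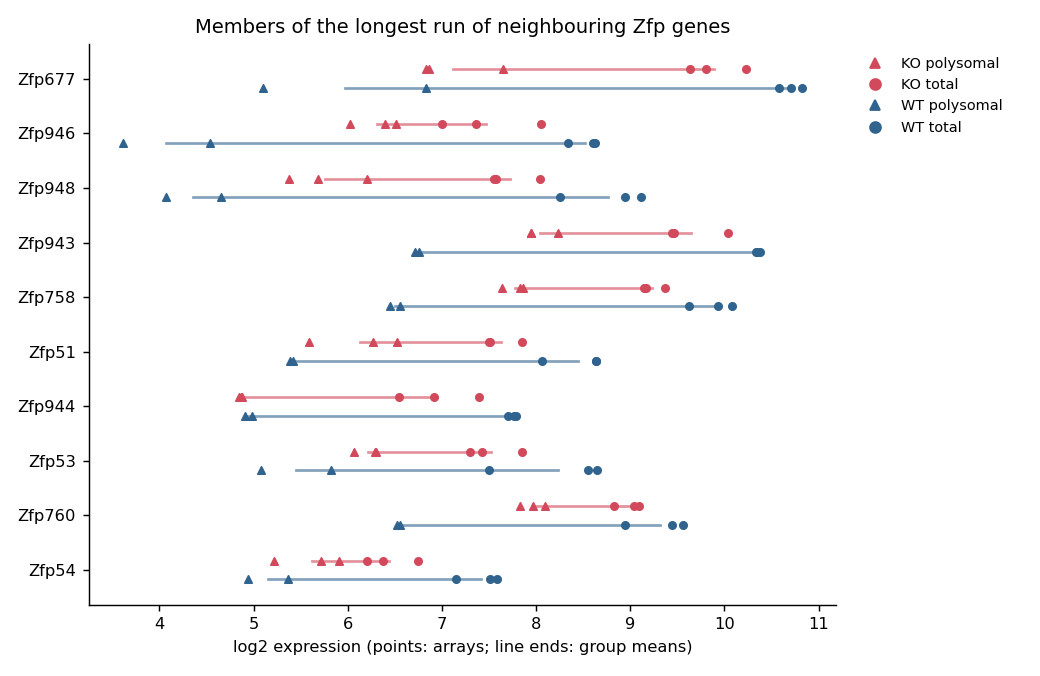
Level (log2 signal) of the 10 tested genes of the longest run of neighbouring Zfp genes, with KO above WT for each gene. Triangles are polysomal arrays, circles total arrays, and the lines join the group means. The polysomal mean lies below the total mean in every gene and genotype, and in 9 of the 10 genes the KO polysomal mean lies above the WT one.

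Partners of KRAB proteins were counted in the same way. Of 31 listed genes 21 were tested, and relative to total RNA 7 were higher and 4 lower on polysomes in KO, and 9 were higher and 3 lower in WT, with a WT median of 0.31 log2. The WT shares, 42.9% higher and 14.3% lower, stand beside 44.5% and 27.9% of all tested genes. Trim28 was higher on polysomes by 1.45 in KO (SE 0.13) and 2.04 in WT (SE 0.15), and did not pass in KO against WT in polysomal RNA (-0.19) or total RNA (0.40, adjusted p = 0.057). Setdb1 passed in none of the comparisons. The interaction was higher for 1 partner and lower for 3, or 4.76% and 14.3%, against 8.06% and 14.2% of all tested genes. These were the remodeller Smarcad1 (0.70), and the NuRD subunits Mta2 (-1.75) and Mta1 (-0.84), and the methyltransferase Ehmt2 (-0.91). Chd4, the NuRD motor that Zfp410 activates, was higher on polysomes by 2.54 in KO and 3.41 in WT.

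Other families with zinc fingers were counted in the same way in WT, where 44.5% of all tested genes were higher and 27.9% lower on polysomes. Among 21 tested Zbtb genes, 7 were higher and 8 lower on polysomes (median 0.11 log2), among 16 Klf and Sp genes 6 were higher and 2 lower (0.11), among 8 Zscan and Zkscan genes 2 were higher and 4 lower (-0.15), and among 12 CCCH genes 3 were higher and 3 lower (-0.11). Zdhhc enzymes, which attach palmitate and do not bind DNA, had 1 higher and 8 lower of 11 (-0.88). The interaction was called higher in 4 and lower in 3 Zbtb genes, and higher in 1 and lower in 3 Zdhhc genes, against 8.06% higher and 14.2% lower of all tested genes. These lists are small, so a few genes move such shares, and differences between families were not tested.

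Markers of some cell types moved with genotype. Of 7 tested markers of dividing cells, 6 were higher in KO polysomal RNA and 4 in KO total RNA. Their summed signal was 11.65 to 11.96 log2 on KO polysomal arrays, against 10.73 to 10.88 on WT polysomal arrays, and 11.59 to 11.78 on KO total arrays, against 10.48 to 10.87 on WT total arrays. Of 6 endothelial markers, 5 were higher in KO total RNA. Their sum was 15.32 to 15.34 on KO polysomal arrays, against 15.23 to 15.29 on WT polysomal arrays, and 13.95 to 14.09 on KO total arrays, against 12.96 to 13.23 on WT total arrays. Of 4 alveolar macrophage markers, 3 were lower in KO in each RNA kind, and 1 was higher in KO total RNA. Their sums were 14.22 to 14.36 on KO polysomal arrays, against 15.08 to 15.21 on WT polysomal arrays. On total arrays they were 13.09 to 13.40 in KO, against 13.66 to 14.06 in WT. Of 6 heart muscle markers, 3 were higher in KO total RNA, with sums of 12.68 to 13.53 on KO polysomal arrays, against 12.49 to 12.94 on WT polysomal arrays, and 11.52 to 12.08 on KO total arrays, against 10.74 to 11.55 on WT total arrays. Of 3 tested club and ciliated markers, Foxj1 (-1.27) and Tekt1 (-1.62) were lower in KO polysomal RNA and 0 passed in total RNA. Their sum was 16.27 to 16.40 on KO polysomal arrays, against 16.38 and 16.39 on WT polysomal arrays, and 16.40 to 16.52 on KO total arrays, against 16.46 to 16.54 on WT total arrays. Of 2 tested red cell precursor markers, Alas2 was higher in KO in polysomal RNA (1.77) and in total RNA (1.82). Their sum was 11.76 to 12.87 on KO polysomal arrays, against 10.42 and 10.43 on WT polysomal arrays, and 9.53 to 10.35 on KO total arrays, against 7.83 to 8.36 on WT total arrays. In KO total RNA 2 of 4 alveolar type 1, 3 of 7 alveolar type 2, 2 of 4 neutrophil and 1 of 3 B cell markers were also higher. In KO polysomal RNA 1 neutrophil marker was, and 0 of 2 T cell markers passed in either. Only 2 of the 4 neutrophil markers had a total RNA difference above 0. The neutrophil sum was 13.56 to 13.87 on KO total arrays, within the 12.51 to 14.83 on WT total arrays. Over all tested genes, 17.2% were higher and 5.97% lower in KO total RNA, and 8.36% higher and 6.77% lower in KO polysomal RNA. The part of these markers in the Zfp differences was not tested.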

How the data were processed

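The deposited table held log2 values, 1 per probe set and array, which per the submitters' processing notes the authors made with GCRMA, which subtracts background, normalizes arrays and condenses probes. No source used here gives its version or how probes were grouped by RefSeq transcript. That the scale is log2 follows from the values (0.73 to 16.68). The labelling kit used 2 cycles and started from 100 ng of RNA, per the labels' protocols. Of 26180 probe sets, 15228 matched 1 gene in the RefSeq table of GRCm38.p6 and 10952 matched none. Where a gene had several probe sets, the brightest on average stood for it. Probe sets with at least 5 log2 on at least 2 arrays (13802, for 8085 genes) were tested, and dimmer ones were not.

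limma 3.58.1 in R 4.3.3 fitted 4 group means over 11 arrays (7 residual degrees of freedom, prior 2.67) with lmFit and eBayes. There were 5 contrasts, each two-sided, with Benjamini-Hochberg adjustment over the 13802 probe sets and a threshold of 0.05. On simulated data of 8085 genes, differences of 0.5 log2 were recovered in 26.9% of cases in the total RNA contrast and 22.4% in the polysomal contrast, and those of 1 log2 in 71.6% and 74.6%, with 12 and 7 false calls. The simulation adjusted over those genes, not over the 13802 probe sets. It changed 67 genes at each of these sizes, far fewer than the 1393 higher and 483 lower called in total RNA. The adjustment depends on the share changed, so recovery in the data may differ. Arrays carry no read depth, so their number limits the precision. In each genotype contrast the 10 Zfp genes with the largest passing difference in each direction were named, 6 in the polysomal minus total contrasts, plus a list of Zfp genes of known role. The genes, lists and alternatives were chosen with earlier results of these data known. Set letters were checked for pairing: with the same letter, deviations from the group means correlated between genotypes at -0.07 to 0.09 over 6 pairs of the same RNA kind. No pairing was used. Between RNA kinds, KO total arrays 1, 2 and 3 correlated with KO polysomal arrays 3, 1 and 2 at 0.32, 0.33 and 0.32. All other such KO pairs were below 0. These matches mostly crossed letters. Whether matched arrays share a mouse is not known, and a fit with that pairing was not run. Protein sequences were not analysed here. Plots were made in Python 3.11.15 with matplotlib 3.10.9.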

Additional observations from a re-analysis of the deposited data

Results flagged for a closer look

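The KO minus WT difference was larger in polysomal than in total RNA for 30 Zfp genes, by the limma interaction at an adjusted p under 0.05. In log2 units, polysomal less total, the values above 1.5 were Zfp946 3.28, Zfp948 2.44, Zfp959 2.09, Zfp943 2.01, Zfp120 1.97, Zfp677 1.96, Zfp160 1.95, Zfp810 1.93, Zfp101 1.92, Zfp758 1.92, Zfp760 1.76, Zfp974 1.73, Zfp68 1.71, Zfp62 1.68, Zfp329 1.65, Zfp51 1.55, Zfp644 1.53. The values from 1.2 to 1.5 were Zfp53 1.47, Zfp54 1.44, Zfp367 1.38, Zfp825 1.29, Zfp945 1.27, Zfp317 1.21, Zfp74 1.21. The smallest were Zfp770 0.93, Zfp606 0.86, Zfp260 0.76, Zfp763 0.76, Zfp451 0.72, Zfp638 0.50. No Zfp gene passed with a value below 0. The calls of Zfp317, Zfp51, Zfp53, Zfp54, Zfp638, Zfp677, Zfp68, Zfp763, Zfp825 and Zfp945 were lost when some single array was left out. Without WT polysomal array 2 the interaction was 0.92 for Zfp825 (adjusted p = 0.16) and 0.62 for Zfp763 (adjusted p = 0.16), and without WT polysomal array 1 it was 1.10 for Zfp53 (adjusted p = 0.16).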

How the results depend on the processing

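The limits are 2 WT polysomal arrays, unexplained set letters, KO and WT mice from different sources, and dim messages: 13 tested Zfp genes averaged under 5 log2 in KO polysomal RNA and 20 in WT polysomal RNA. Of the Zfp medians, 1 changed its sign under an alternative, that of KO minus WT in polysomal RNA without the filter. Without the filter on low values, all 234 Zfp genes entered, and 57 were lower in KO total RNA (24.4%, against 18.5% of all 14351 genes) and 143 were lower on WT polysomes (61.1%, against 45.2%). The medians were -0.0079 (KO minus WT, polysomal), 0.12 (interaction), -0.19 (polysomal minus total, KO) and -0.30 (the same, WT), and over all genes -0.02, 0.03, -0.04 and -0.07. Over the 112 Zfp genes that reached the minimum in both RNA kinds, a choice made after seeing the data, the WT median of polysomal minus total was -0.72, against -0.94 over the 124. With a minimum of 6 log2, the polysomal median was 0.23 and the KO polysomal minus total median -0.63. Quantile normalization gave medians of -0.22 (KO minus WT, total), -0.67 (polysomal minus total, KO) and -1.03 (WT), and moved the WT median of all genes to 0.06, against 0.22. A threshold of 0.01 left 4 genes lower and 1 higher in KO total RNA, 10 higher in KO polysomal RNA, 14 in the interaction, and 7 higher on polysomes in each genotype. The shares of all genes at 0.01 were not counted. Fitting the total arrays alone gave 13 lower genes, against 4.06% of all tested genes.

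With the set letter as a replicate block, 13 Zfp genes were lower and 5 higher in KO total RNA, against 4.63% and 15.3% of all tested genes. In KO polysomal RNA 18 were higher, against 6.83%. In the interaction 27 were higher and 2 lower, against 5.80% and 10.1%. With the block within each RNA kind, 13 were lower in KO total RNA, against 3.83% of all tested genes. This last fit was not run for polysomal minus total RNA. The same letter did not pair arrays of the same RNA kind.

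Leaving out each array gave 2 to 5 higher and 8 to 30 lower in KO total RNA (medians -0.18 to -0.13), 13 to 27 higher and 0 to 2 lower in KO polysomal RNA (0.13 to 0.19), and 22 to 33 higher and 0 to 2 lower in the interaction (0.24 to 0.31). For polysomal minus total RNA it gave 8 to 13 higher and 67 to 77 lower in KO (-0.61 to -0.55), and 9 to 12 higher and 75 to 82 lower in WT (-0.94 to -0.88). The shares of all tested genes also moved with the array left out, so these ranges do not describe the Zfp genes alone. The share lower in KO total RNA was 2.24% without KO total array 2 and 8.68% without WT total array 3. The share higher in KO polysomal RNA was 5.17% without KO polysomal array 2, against 8.36% with all arrays. The share higher in the interaction was 4.69% without WT total array 1 and 9.99% without WT total array 3. Of 57 calls for named genes, quantile normalization, equal array medians, an intensity trend and averaged probe sets lost 0. The set letter block lost 5 and a threshold of 0.01 lost 16. The block within RNA kind lost 8 of 33, and groups compared alone lost 6 of 47. Leaving out 1 array lost from 1 to 10 (without KO total array 2).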
